A study of Mus musculus with 8 samples.

Results

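Osteopontin (OPN, encoded by Spp1), its receptor CD44 and the genes that make, cut or bind hyaluronan, the other ligand of CD44, were examined in the RNA of gastric squamous-columnar junction (SCJ) cancers of mice. The members were the rows of the gene table with the symbols Spp1, Cd44, Has1, Has2, Has3, Hyal1, Hyal2 and Hmmr, 8 genes of 23361. RNA sequencing libraries were made from 5 SCJ cancers and from the SCJ of 3 control stomachs. The cancers were labelled Trp53-/-Rb1-/- and arose in Lgr5eGFP-Ires-CreERT2 Trp53loxP/loxP Rb1loxP/loxP Ai9 mice after tamoxifen, so that the deletion was driven from the Lgr5 locus and deleted cells also carried a tdTomato reporter. The controls were labelled wild type and, per the methods, were paired by age, and for them the sources name no Cre allele, floxed allele, reporter or tamoxifen. Tumor growth, the alleles and the tamoxifen therefore cannot be told apart. Each cancer was dissected as tissue and holds stroma, vessels, immune cells and remaining mucosa beside tumor cells, and no source says that the 5 cancers came from separate animals, so p-values measure the spread between these samples.

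Osteopontin is a secreted, acidic phosphoglycoprotein of mineralized matrix that is also released by activated macrophages and by many tumors. It binds several integrins and certain forms of CD44, a transmembrane receptor of epithelial stem and progenitor cells, leukocytes and many carcinomas. Hyaluronan, a long unsulfated polysaccharide of the pericellular matrix, is the main ligand of CD44. It is extruded at the plasma membrane by the hyaluronan synthases (Has genes), degraded by hyaluronidases (Hyal genes) and also bound by the receptor RHAMM (Hmmr), which is a spindle-associated protein of dividing cells as well.

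Spp1 (Entrez Gene 20750) lies on chromosome 5 at 104435111 to 104441053 on the forward strand of mm10, and Cd44 (Entrez Gene 12505) on chromosome 2 at 102811142 to 102901665 on the reverse strand. The GENCODE M21 annotation of the same assembly gives Spp1 7 transcripts and Cd44 9 transcripts. Pooled over the Cd44 transcripts there are 32 distinct pairs of exon start and end, so an exon with alternative ends counts more than once. Variable exons encode part of the extracellular stem of CD44 and were not counted here. Values per gene do not separate these transcripts. Start-site sequences from RefSeq (GRCm38.p6) were matched for 6 of the 8 members. They are shown for the genes that rose and for Hmmr, the member next to them in effect size, because they are the regulatory sequence nearest to the RNA that was measured. Each runs from 250 bases before to 30 bases after the annotated start, 5′ to 3′ on the strand of the gene, and capitals mark every match to the motifs listed after them. The windows are chr5:104434861-104435140 (forward strand) for Spp1, chr2:102901636-102901915 (reverse strand) for Cd44 and chr11:40733408-40733687 (reverse strand) for Hmmr.
Spp1: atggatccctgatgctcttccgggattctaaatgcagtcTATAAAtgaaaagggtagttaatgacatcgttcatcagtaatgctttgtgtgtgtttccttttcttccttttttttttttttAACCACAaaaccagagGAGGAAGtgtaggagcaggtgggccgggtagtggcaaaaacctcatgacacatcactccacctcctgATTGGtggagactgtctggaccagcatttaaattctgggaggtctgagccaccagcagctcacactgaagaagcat
Cd44: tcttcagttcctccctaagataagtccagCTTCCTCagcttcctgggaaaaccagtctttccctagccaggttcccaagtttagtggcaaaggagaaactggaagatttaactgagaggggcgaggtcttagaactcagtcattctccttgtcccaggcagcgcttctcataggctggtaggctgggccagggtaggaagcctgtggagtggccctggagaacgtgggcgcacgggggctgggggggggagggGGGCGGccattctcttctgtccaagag
Hmmr: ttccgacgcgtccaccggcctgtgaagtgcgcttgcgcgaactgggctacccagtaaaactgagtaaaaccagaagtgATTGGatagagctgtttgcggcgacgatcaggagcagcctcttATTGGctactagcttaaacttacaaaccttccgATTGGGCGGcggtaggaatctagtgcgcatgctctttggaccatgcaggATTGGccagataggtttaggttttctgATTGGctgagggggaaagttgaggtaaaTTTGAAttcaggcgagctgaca

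The letters searched on both strands were TATAAA (the TATA box), CCAAT (the NF-Y box), TGANTCA (AP-1), AACCACA (RUNX), GGGCGG (Sp1), TTTGAA (the cell cycle homology region), TTTGGCGC and TTTCCCGC (E2F) and GAGGAAG (ETS). Over all 32851 RefSeq windows of 300 bases, TATAAA was held by 13.6%, CCAAT by 37.4%, TGANTCA by 7.81%, AACCACA by 5.27%, GGGCGG by 35.7%, TTTGAA by 17.9%, TTTGGCGC by 0.514%, TTTCCCGC by 1.07% and GAGGAAG by 13.6%. Counted from the start site at +1, the Spp1 window held TATAAA at -211, AACCACA at -129, GAGGAAG at -113 and CCAAT on the opposite strand at -46. The Cd44 window held GGGCGG at +4 and GAGGAAG on the opposite strand at -221. The Hmmr window held CCAAT on the opposite strand at -172, -129, -96, -47 and -20, and 0.271% of all windows held at least 5 matches to CCAAT. It also held GGGCGG at -93, which overlaps the CCAAT at -96, and TTTGAA at +9. The printed Spp1 and Cd44 windows shared the match to GAGGAAG alone. RefSeq also gives Spp1 a second, downstream start, whose window is not printed and held TTTGAA at -216 as its 1 match. GC content over the 300 bases was 45.3% in the Spp1 window, 58.0% in that of Cd44 and 50.7% in that of Hmmr, against a median of 52.7% over all windows. Each match is a run of letters and was not measured as a binding site here.

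Values are FPKM (fragments per kilobase of transcript and per unit of mapped library), a level scaled by transcript length, which the authors rounded to whole numbers. The summed FPKM of a library was 403569 to 573858 in the cancers and 887141 to 992550 in the controls, in which the 10 most abundant genes held 39.3 to 44.3% of the sum against 11.1 to 19.6% in the cancers. Read numbers are not in the table, so depths are unknown. A zero is given as listed at 0, because Pgc, a chief cell gene, was listed at 28832 in control 1 and at 0 in controls 2 and 3. The deleted genes were at 12, 22, 12, 30 and 12 (Trp53) and 4, 4, 5, 6 and 4 (Rb1) in the cancers and at 16, 17 and 19 (Trp53) and 9, 9 and 10 (Rb1) in the controls, with adjusted p = 0.87 for Trp53 and 0.0059 for Rb1 in limma. The label of the control tissue was checked against its markers. Squamous genes such as Krt13 and Krt4 (7 markers, summed FPKM 1545 to 2589) and gastric gland genes such as Tff1 and Gkn2 (10 markers, 158537 to 240752) were both present in every control, whereas in the cancers these sums ran from 0 to 1671 and from 694 to 78716. Neuroendocrine genes such as Chga and Chgb (9 markers) summed to 8053 to 17914 in the cancers and 125 to 189 in the controls. By limma, called higher and lower were 0 and 1 of 7 squamous genes (0 and 2 unadjusted), 0 and 1 of 10 gastric gland genes (0 and 6 unadjusted), 1 and 3 of 6 columnar genes, 9 and 0 of 9 neuroendocrine genes, 2 and 0 of 4 tested hepatocyte genes (3 and 0 unadjusted) and 0 and 0 of 6 smooth muscle genes (also unadjusted). The gastric gland count called lower was 4 without cancer 1 or cancer 2, 3 without cancer 4 and 0 without any other sample (limma, 1 to 4 unadjusted), and the squamous count was 2 without cancer 4, 1 without cancer 5 and 0 without any other sample (limma, 1 to 2 unadjusted). Without control 1 the columnar count called lower was 1. The called hepatocyte genes were Ahsg, at 492 to 2886 FPKM in the cancers and 1 to 2 in the controls, and Ttr, at 455 to 2011 FPKM against 66 to 94. The sum over the hepatocyte list was highest in cancer 1 (4433 FPKM), where Ahsg (2386 FPKM) and Ttr (2011 FPKM) made up most of it and Alb was at 16 FPKM. Cancer 5 (3908 FPKM) had the lowest Ttr of the cancers and the highest Ahsg and Alb (266 FPKM). Fga, Fgg, Apoh and Serpina1a were at 65, 93, 21 and 11 FPKM in cancer 5 and listed at 0 in all other samples.

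Of the 8 members, 5 were at 1 FPKM or more in 3 or more samples and were tested with limma on log2(FPKM + 1) together with all 14357 genes that did so. The 3 hyaluronan synthases did not pass this filter. A gene was called where its Benjamini-Hochberg adjusted p over all 14357 genes was under 0.05. Called higher in the cancers were 2 members, Spp1 and Cd44, where 16.2% of all tested genes were called higher, and called lower were 0 members by limma, adjusted or unadjusted, where 18.3% of all tested genes were called lower. Every cancer lay above every control for the same 2 members, against 14.4% of all tested genes, and every cancer lay below every control for 0 members, against 19.8%. With 5 tested members these counts are not a result about the members as a group, and each gene is described on its own values.

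Spp1, the ligand, was at 157, 134, 383, 257 and 242 FPKM in cancers 1 to 5 and at 6, 45 and 10 FPKM in controls 1 to 3. The lowest cancer stood above the highest control, and control 2 stood well above the other controls. The mean level was 234.6 ± 98.4 FPKM (SD, n = 5) in the cancers and 20.3 ± 21.5 FPKM (SD, n = 3) in the controls. The log2 fold change was 3.85 (standard error 0.62, 95% interval 2.41 to 5.29, limma adjusted p = 0.00435), which is 14.4-fold on the FPKM + 1 scale. The exact permutation test, two-sided and over the 56 ways to divide 8 samples into 5 and 3, gave p = 0.0357, the smallest p it can give. Spp1 rose in the rank order of each library as well, which does not depend on scaling. It was at percentile 97.6 to 99.4 of all 23361 genes in the cancers and at 66.3, 91.9 and 73.5 in controls 1 to 3. With every library scaled to an equal sum (TPM) the log2 fold change was 4.83, where the median of all genes moved from -0.04 to 0.81. By TPM 50.0% of all tested genes were called higher and 3.68% lower, and after quantile normalization 13.2% were called in each direction, so counts under these scalings are read against those shares. Control 2 held the estimate down, and the log2 fold change was 4.65 without it, 3.29 without control 1 and 3.61 without control 3.

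Cd44, the receptor, was at 16, 46, 55, 31 and 32 FPKM in cancers 1 to 5 and at 8, 10 and 11 FPKM in controls 1 to 3. The groups did not overlap, but cancer 1 came nearer to the controls than to the median cancer. The mean level was 36.0 ± 15.0 FPKM (SD, n = 5) in the cancers and 9.67 ± 1.53 FPKM (SD, n = 3) in the controls. The log2 fold change of Cd44 was 1.69 (standard error 0.37, 95% interval 0.84 to 2.54, limma adjusted p = 0.0124), or 3.24-fold on the FPKM + 1 scale, with p = 0.0357 in the exact permutation test. Its percentile among all genes was 83.4 to 95.1 in the cancers and 70.1 to 74.8 in the controls. The log2 fold change was 2.65 with TPM, and it was 1.58 without control 1, where the adjusted p of limma was 0.0542 and the call was lost. Leaving out any other sample kept Cd44 past the threshold, with log2 fold changes of 1.52 to 1.95. In bulk samples, more cells that express a gene and more RNA per cell cannot be told apart, for Cd44 as for the other members.

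**Figure D1:**
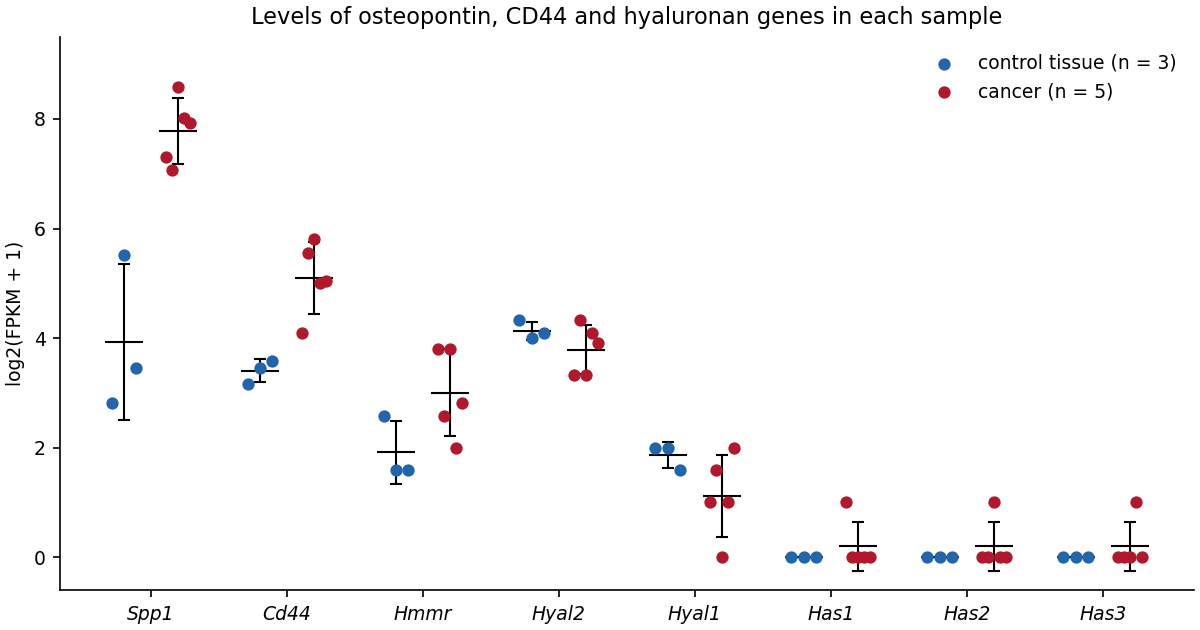
Level of each member as log2(FPKM + 1) on the vertical axis, with 3 control tissue samples (blue) and 5 cancers (red). Points are samples, horizontal bars are group means and whiskers are SD. Spp1 and Cd44 are the 2 members with no overlap between groups, and Has1, Has2 and Has3 lie at 0 in all controls and in 4 of 5 cancers each.

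The hyaluronan synthases were near the lower end of the table. Has1 was listed at 1 FPKM in cancer 1, Has2 at 1 FPKM in cancer 3 and Has3 at 1 FPKM in cancer 4, and each was listed at 0 in the other 4 cancers and in all 3 controls. No synthase was thus listed above 1 in any sample, and no sample had more than 1 of the 3 genes above 0. A value of 1 is the smallest step that the rounding leaves, and these differences carry no test. Has2 overlaps the antisense gene Has2os, and Has3 overlaps Chtf8 on the opposite strand. The libraries were directional, while the strand setting of the quantification is not given in the sources used here.

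Hyal2, a hyaluronidase anchored to the cell surface that cuts long hyaluronan, was the more abundant of the member hyaluronidases. It was at 9, 19, 9, 16 and 14 FPKM in cancers 1 to 5 and at 19, 15 and 16 FPKM in controls 1 to 3. The groups overlapped, with cancers 1, 3 and 5 below the lowest control and cancer 2 level with the highest. The log2 fold change was -0.34 (standard error 0.26, 95% interval -0.95 to 0.26, limma adjusted p = 0.324; exact permutation test, p = 0.357). The sign of this difference depended on scaling, since with TPM it was 0.58 (adjusted p = 0.0449 in limma), below the shift of 0.81 in the median gene.

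Hyal1, the lysosomal hyaluronidase that acts on the fragments, was at 1, 2, 0, 1 and 3 FPKM in cancers 1 to 5 and at 3, 3 and 2 FPKM in controls 1 to 3. The groups overlapped, and at this level each step of the rounding is a large part of the value. The log2 fold change was -0.74 (standard error 0.42, 95% interval -1.72 to 0.23, limma adjusted p = 0.193; exact permutation test, p = 0.25). Weighting the samples by their quality in limma gave -1.14 with an adjusted p of 0.0275, the only alternative that called it. Hyal1 overlaps Naa80 and Hyal3 on the same strand of chromosome 9, so fragments can be shared among these genes and its level is uncertain. Added together, Hyal1 and Hyal2 were at 9 to 21 FPKM in the cancers and 18 to 22 FPKM in the controls.

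Hmmr was at 13, 5, 13, 3 and 6 FPKM in cancers 1 to 5 and at 5, 2 and 2 FPKM in controls 1 to 3. Cancers 1 and 3 lay well above every control, whereas cancer 2 was level with control 1 and cancer 4 was below it. The mean level was 8 ± 4.69 FPKM (SD, n = 5) in the cancers and 3 ± 1.73 FPKM (SD, n = 3) in the controls. The log2 fold change of Hmmr was 1.08 (standard error 0.48, 95% interval -0.03 to 2.19, limma adjusted p = 0.112; exact permutation test, p = 0.107), a difference within the spread. It was called with TPM (1.98, adjusted p = 0.0201 in limma) and with sample weights (1.53, adjusted p = 0.0112 in limma), and in 0 of the 8 limma fits that left out 1 sample, whose adjusted p ran from 0.0518 to 0.275.

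Hmmr was set beside the genes of mitosis, in which its protein takes part. Of 17 mitosis genes tested, 9 were called higher in the cancers and 0 lower by limma, and 14 and 0 had an unadjusted p under 0.05, with a median log2 fold change of 1.06 against -0.04 over all tested genes. With TPM all 17 were called higher, where 50.0% of all tested genes were. Among the 9 were Prc1, a midzone microtubule bundler (1.71, standard error 0.39, adjusted p = 0.0149), Nusap1, a spindle protein (1.46, standard error 0.41, adjusted p = 0.0304), and Cdk1, the mitotic kinase (1.45, standard error 0.33, adjusted p = 0.0143). The count changed with the sample left out. It was 13 without cancer 4, 4 without control 1, 3 without cancer 1, 2 without cancer 3, 1 without control 2 and 0 without control 3, where 9 kept an unadjusted p under 0.05. The median log2 fold change ran from 0.94 to 1.25 with 1 sample left out. Summed over the 17 genes, mitosis levels were 332, 220, 306, 128 and 181 FPKM in cancers 1 to 5 and 134, 82 and 85 FPKM in controls 1 to 3. Cancers 1 and 3, which had the highest Hmmr, also had the highest sums, and cancer 4 the lowest of both among the cancers. Hmmr came to 2.27 to 4.25% of this sum in the cancers and to 2.35 to 3.73% in the controls, ranges that overlapped.

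The relation of ligand to receptor was followed sample by sample. Cancer 3 was highest in both genes, at 383 FPKM of Spp1 and 55 FPKM of Cd44. Otherwise the order differed, because cancer 2 had the lowest Spp1 and the second highest Cd44 of the cancers, and cancer 1 had the lowest Cd44. Per unit of Cd44, Spp1 stood at 9.81, 2.91, 6.96, 8.29 and 7.56 in cancers 1 to 5 and at 0.75, 4.50 and 0.909 in controls 1 to 3. The ratio was above the controls in 4 of 5 cancers, and cancer 2 fell below control 2. No correlation was tested, since there were only 5 cancers and the 8 samples form separate groups in both genes. Over all 8 samples Pearson's r of log2(FPKM + 1) was 0.85, a description that the difference between the groups carries. Among 9137 genes with a mean of at least 5 FPKM, Cd44 ranked 575 in likeness to Spp1, and Spp1 ranked 121 in likeness to Cd44.

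**Figure D2:**
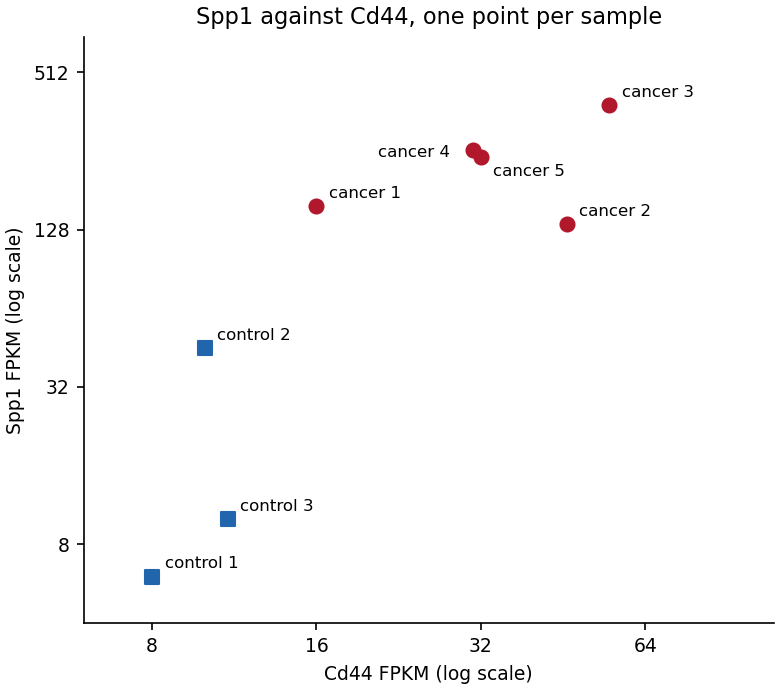
Spp1 (vertical axis) against Cd44 (horizontal axis), both in FPKM on log scales, with 1 point per sample (red circles, cancers; blue squares, controls). Cancer 3 is highest in both genes, at 383 and 55 FPKM, while cancer 2 pairs the lowest Spp1 of the cancers, 134 FPKM, with a Cd44 of 46 FPKM.

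The genes most like Spp1 over the 8 samples were 2810025M15Rik (r = 0.97), Tsen15 (0.96), which encodes a subunit of the tRNA splicing endonuclease, Celf4 (0.96), an RNA-binding protein of neurons, Aplp1 (0.96), an amyloid precursor-like protein, and Prpf40b (0.96), a splicing factor. Those most like Cd44 were AI413582 (r = 0.98), Slc50a1 (0.97), a sugar transporter, Sphk1 (0.96), a sphingosine kinase, Map3k12 (0.95), a kinase of neuronal stress signaling, and Chi3l1 (0.94), a secreted chitinase-like protein. Chi3l1 illustrates the likeness to Cd44, at 2, 10, 23, 7 and 11 FPKM in cancers 1 to 5 and at 2 FPKM in each control, where cancer 3 was highest and cancer 1 lowest among the cancers, as for Cd44. Leaving out 1 sample kept between 0 and 4 of the 5 genes on either list, so the lists rest on single samples.

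Osteopontin is made by macrophages, and part of the macrophage markers were also called higher in the cancers. Of 13 markers 11 were tested, of which 6 were called higher in the cancers and 0 lower by limma, and 9 and 0 had an unadjusted p under 0.05. Of the 6, Msr1 and Itgam were listed at 0 in every control. Adgre1 (listed as Emr1), Cd68, Cd14, Mrc1 and Gpnmb were not called. The count called higher was 10 with TPM (against 50.0% of all tested genes), 4 after quantile normalization and 5 to 8 with 1 sample left out. The summed level was 157 to 326 FPKM in the cancers and 40 to 56 FPKM in the controls. No marker was listed at 0 in every library, while Cd163 and Marco were listed at 0 in all 3 controls and in 3 of 5 cancers each. The complement genes led, as C1qa was at 62, 56, 117, 47 and 51 FPKM in cancers 1 to 5 and at 13, 15 and 10 FPKM in controls 1 to 3 (log2 fold change 2.24 with standard error 0.30, limma adjusted p = 0.00267). C1qb (2.12, standard error 0.31) and C1qc (2.33, standard error 0.29) had log2 fold changes close to it. Cancer 3, highest in Spp1, was highest in each of the 3 complement genes, whereas cancer 4, the second highest in Spp1, was the lowest of the cancers in each of them and in the summed markers. Relative to the summed markers, Spp1 was at 0.831, 0.757, 1.17, 1.64 and 1.20 in cancers 1 to 5 and at 0.122, 0.804 and 0.250 in controls 1 to 3. In this ratio cancer 2 fell below control 2, so the groups overlapped. Relative to Epcam, an epithelial adhesion gene, Spp1 was at 0.409 to 0.972 in the cancers and 0.0328 to 0.283 in the controls, without overlap. Epcam was the 1 of 6 columnar markers called higher, so it does not stand for the epithelium as a whole.

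The same ratios placed Cd44 otherwise. Cd44 per summed macrophage marker was 0.0847 to 0.260 in the cancers and 0.163 to 0.275 in the controls, and Cd44 per Epcam was 0.0510 to 0.146 in the cancers and 0.0437 to 0.0636 in the controls, both with overlap. Epcam itself was at 314, 315, 394, 379 and 592 FPKM in cancers 1 to 5 and at 183, 159 and 173 FPKM in controls 1 to 3 (log2 fold change 1.17 with standard error 0.23, limma adjusted p = 0.00919). The columnar markers Krt8, Cdh1 and Cldn18 went the other way, with log2 fold changes of -2.02, -1.78 and -2.10. Cdh1 was at 52 to 173 FPKM in the cancers and 304 to 390 in the controls. The overlap of Cd44 per Epcam thus depends on the epithelial gene chosen. These ratios were chosen after the values were seen and carry no test. Other lists of cells that can express Cd44 were counted as well. Of 5 endothelial markers 3 were called higher and 0 lower by limma, with the same counts unadjusted (sums 14 to 50 FPKM in the cancers, 8 to 12 in the controls), and of 8 fibroblast markers 2 were called higher and 0 lower, 3 and 0 unadjusted (sums 68 to 346 against 76 to 137). Both counts changed with the sample left out. The median log2 fold changes ran from 1.24 to 1.56 (endothelial) and from 0.96 to 1.56 (fibroblast) in those fits. Calls over the whole table also fell without any 1 of the controls. The endothelial count called higher was 1 without control 2 and 0 without control 1 or control 3 (limma, 2 and 3 unadjusted), and the fibroblast count was 0 without any 1 of the controls (limma, 2 to 3 unadjusted) and 5 without cancer 5. With TPM 7 fibroblast and 4 endothelial markers were called higher, against 50.0% of all tested genes. Of 10 leukocyte and lymphocyte markers 6 were tested and 0 called by limma, adjusted or unadjusted, with Ncr1 listed at 0 in every library and a sum of 164 FPKM in cancer 1 against 3 to 12 in cancers 2 to 5 and 4 to 5 in the controls. Cancer 1, the sample rich in lymphocyte genes, had the lowest Cd44 of the cancers, and without it the log2 fold change of Cd44 was 1.95. The part of any of these cell types in the levels of Spp1 and Cd44 was not tested.

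**Figure D3:**
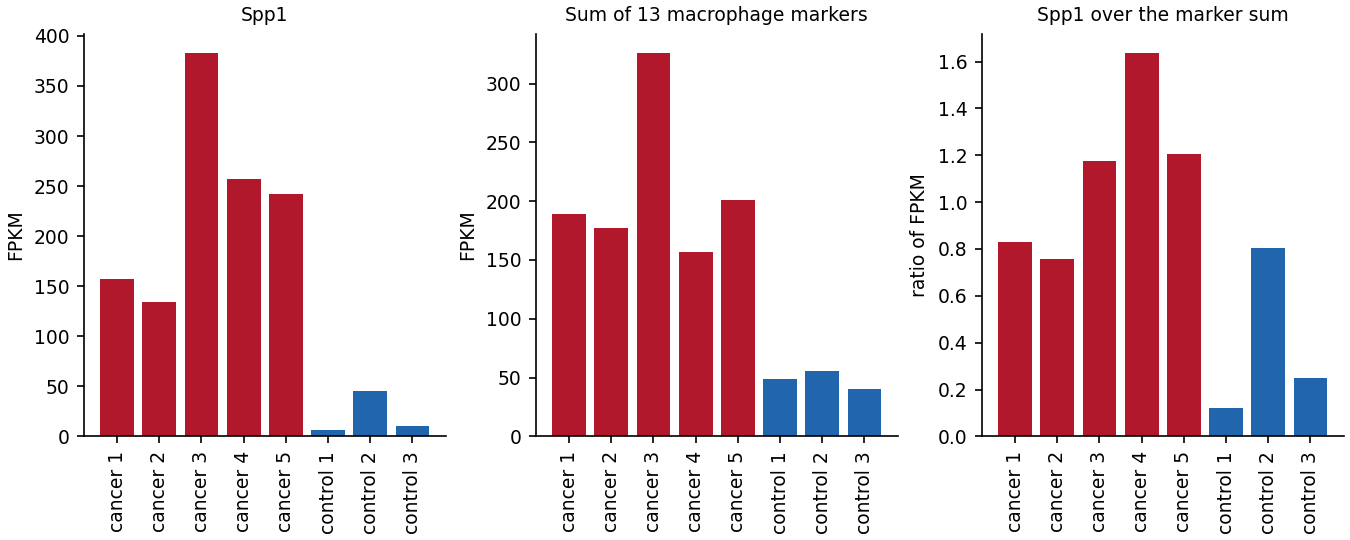
Spp1 in FPKM (left), the summed FPKM of 13 macrophage markers (middle) and the ratio of the first to the second (right), with 1 bar per sample (red, cancers; blue, controls). Both levels separate the cancers from the controls, and in the ratio cancer 2, at 0.757, falls below control 2, at 0.804.

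The other ligands of the osteopontin family were listed at 0 or 1 FPKM. Dmp1, Dspp and Mepe, matrix genes of bone and tooth, were listed at 0 in all 8 samples, and Ibsp, bone sialoprotein, at 0 or 1. Ibsp, the 1 gene of these 4 that was tested, was not called in either direction by limma, adjusted or unadjusted.

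Among the integrin subunits that pair into osteopontin receptors, 4 of 9 tested genes were called higher and 0 lower by limma, with 4 and 2 at an unadjusted p under 0.05, and the median log2 fold change was 0.25. Those called were at low levels. With TPM the count called higher was 6, with 0 lower and a median of 1.22, and after quantile normalization it was 4, with 0 lower. Over all tested genes the share called higher was 16.2% in the main fit, 50.0% with TPM and 13.2% after quantile normalization. Itga4 was at 3, 1, 2, 2 and 2 FPKM in cancers 1 to 5 and listed at 0 in the 3 controls, and thus passed the filter through the cancers alone. Itgb3, the beta subunit of the classical vitronectin receptor, was at 2, 3, 2, 2 and 2 FPKM against 0, 1 and 0 in the controls (1.33 on the log2 scale, standard error 0.26, limma adjusted p = 0.00829). Itga5, part of the fibronectin receptor, was at 3, 9, 4, 4 and 4 FPKM against 1, 2 and 2 in the controls (1.07, standard error 0.31, adjusted p = 0.0336 in limma). The fourth was Itga9. The abundant subunit Itgb1 was at 88 to 109 FPKM in the cancers and 63 to 111 in the controls and was not called, but it was called higher with TPM (1.22, limma adjusted p = 0.00533) and after quantile normalization (0.76, limma adjusted p = 0.0397), as was Itgb5 (32 to 47 FPKM in the cancers and 33 to 34 in the controls). Without any 1 of the 3 controls the count of subunits called was 2.

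Of 12 tested genes whose products cut CD44 or osteopontin, 3 were called higher and 3 lower, against 16.2% and 18.3% of all tested genes. The split moved with scaling, as it did over all tested genes. By TPM 6 were called higher and 0 lower, against 50.0% and 3.68% of all tested genes. After quantile normalization 2 were called higher and 1 lower, against 13.2% in each direction. Mmp14, a membrane metalloproteinase that sheds CD44, was at 12, 15, 15, 14 and 21 FPKM in cancers 1 to 5 and at 4, 5 and 4 FPKM in controls 1 to 3 (log2 fold change 1.60 with standard error 0.18, limma adjusted p = 0.00148). Mmp3, which cuts osteopontin, was at 1, 7, 5, 8 and 30 FPKM in the cancers and listed at 0 in the controls. Mmp9 was also called higher, at 0 to 1 FPKM in the cancers and 0 in the controls. Among those called lower, Aph1a, a subunit of gamma-secretase, fell by 1.02 on the log2 scale (limma adjusted p = 0.00778, standard error 0.19). Adam10, a sheddase of CD44, was at 28, 33, 27, 36 and 56 FPKM in the cancers and at 89, 62 and 57 FPKM in the controls (-0.95, standard error 0.27, adjusted p = 0.0291 in limma). With TPM, Adam10 turned to 0.0068, not called, and Aph1a was at -0.06. Without any 1 of the 3 controls, the count fell to 2 genes, 1 in each direction.

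A list of CD44 partners, comprising proteins of its cytoplasmic tail, the splicing regulators Esrp1 and Esrp2, and Cd74 and Mif, had 2 of 10 tested genes called higher and 5 lower. Over all tested genes 16.2% were called higher and 18.3% lower. The balance of the list moved with scaling, as it did over all genes. It was 5 higher and 2 lower by TPM, against 50.0% and 3.68% of all tested genes. After quantile normalization it was 3 higher and 3 lower, against 13.2% in each direction. Of the 3 proteins that tie CD44 to actin, Msn (moesin) was at 48, 22, 35, 25 and 22 FPKM in cancers 1 to 5 and at 5, 7 and 6 FPKM in controls 1 to 3 (log2 fold change 2.11 with standard error 0.28, limma adjusted p = 0.00237). Rdx (radixin) was at 33, 9, 33, 15 and 24 FPKM against 4, 5 and 4 (2.02, standard error 0.41, adjusted p = 0.0103 in limma). Ezr (ezrin) was at 47, 185, 58, 210 and 112 FPKM against 452, 528 and 555 (-2.29, standard error 0.52, adjusted p = 0.0145 in limma). In none of these did the groups overlap, and the signs of all 3 were the same with TPM and with quantile normalization. Ezrin is the form typical of microvilli, and moesin that of leukocytes and endothelium. The ezrin scaffold Slc9a3r1 fell by 1.55 on the log2 scale (limma adjusted p = 0.00861, standard error 0.30). Esrp2, which with Esrp1 directs inclusion of the variable exons of Cd44 in epithelium, was at 2, 16, 5, 16 and 15 FPKM in the cancers and at 41, 35 and 41 FPKM in the controls (-2.05, standard error 0.61, adjusted p = 0.0352 in limma). Esrp1 was at 27 to 37 FPKM in the cancers and 41 to 45 in the controls and was called lower, but turned to 0.42, not called, with TPM. Ank3 was called lower as well. The count called was 4 without control 2 or control 3. The gastric gland markers, from an epithelium rich in ezrin, were lower in the cancers by the sums given above, and their part in the fall of Ezr was not tested.

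Of the other genes that degrade hyaluronan, 3 of 7 were tested (Hyal3, Tmem2 and 9930013L23Rik, also called Cemip) and 0 were called by limma, with 0 higher and 1 lower at an unadjusted p under 0.05. Hyal5, Hyal6 and Spam1 were listed at 0 throughout. Of 24 other receptors and binding proteins of hyaluronan 16 were tested, with 3 called higher and 1 lower and a median log2 fold change of 0.60. Over all tested genes 16.2% were called higher and 18.3% lower. Hapln4, a link protein that joins hyaluronan to proteoglycans, was at 11, 5, 4, 6 and 19 FPKM in cancers 1 to 5 and at 0, 1 and 1 FPKM in controls 1 to 3 (log2 fold change 2.46 with standard error 0.49, limma adjusted p = 0.00935). Stab1, a scavenger receptor of macrophages and sinusoidal endothelium, was at 2 to 3 FPKM in the cancers and 1 in each control (0.83, standard error 0.16, adjusted p = 0.00818 in limma). Layn, the receptor layilin, was listed at 1 in every cancer and at 0 in every control, a difference of a single rounding step. Tlr4, an innate receptor that hyaluronan fragments can engage, was at 3, 5, 4, 5 and 7 FPKM in the cancers and at 28, 14 and 12 FPKM in the controls (-1.66, standard error 0.32, adjusted p = 0.00791 in limma). Tnfaip6, Hapln2, Hapln3, Acan and Ncan were listed at 0 in all samples. The count called higher was 8 with TPM, with 0 lower, against 50.0% and 3.68% of all tested genes. It was 1 after quantile normalization, with 1 lower, against 13.2% in each direction. Without cancer 5 the count called was 7, and Itih3 (19 FPKM), Itih4 (32 FPKM) and Ambp (30 FPKM), which liver also makes, were highest in cancer 5.

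The supply of nucleotide sugars, from which the synthases build hyaluronan and other enzymes build glycoproteins and mucins, had 2 of 7 genes called higher and 3 lower, a balance that turned to 4 higher and 1 lower with TPM. Over all tested genes 16.2% were called higher and 18.3% lower, and with TPM 50.0% and 3.68%. The count called was 3 without any 1 of the controls, with 1 higher and 2 lower without control 1 or control 2 and 0 higher and 3 lower without control 3 (limma, 2 higher unadjusted). Ugdh, which makes UDP-glucuronic acid, was at 39, 125, 32, 87 and 73 FPKM in cancers 1 to 5 and at 355, 268 and 307 FPKM in controls 1 to 3 (log2 fold change -2.27 with standard error 0.44, limma adjusted p = 0.00833). The groups lay far apart, and Ugdh stayed called with TPM (-1.31, adjusted p = 0.0127 in limma). Ugp2, which makes UDP-glucose, and Uap1, which makes UDP-N-acetylglucosamine, had log2 fold changes of -1.69 (standard error 0.39, adjusted p = 0.0155 in limma) and -1.66 (standard error 0.25, adjusted p = 0.00365 in limma). Pgm3, an upstream enzyme of the hexosamine pathway, was at 10, 6, 10, 6 and 8 FPKM in the cancers and at 4, 4 and 3 FPKM in the controls (0.93, standard error 0.21, adjusted p = 0.0148 in limma). Gfpt2 was called higher at 0 to 2 FPKM in the cancers against 0 in the controls. The sum over the 7 genes was 165 to 255 FPKM in the cancers and 503 to 665 FPKM in the controls, without overlap. Scaled to an equal library sum it was 376 to 541 in the cancers and 512 to 696 in the controls (TPM), with overlap. The summed gastric gland markers were lower in every cancer than the lowest control, with 1 of 10 called lower, and their part in these levels was not tested.

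The single genes of these lists differed in how far they held. Itga4, Mmp3, Mmp9, Layn and Gfpt2, and the macrophage markers Msr1 and Itgam, were listed at 0 in every control and passed the filter on low values through the cancers alone, so that their calls and their place in the counts above support nothing. Of the others, Itgb3, Mmp14, Aph1a, Msn, Rdx, Slc9a3r1, Ank3, Stab1, Hapln4, Tlr4, Ugdh and Uap1 kept an adjusted p under 0.05 in all 8 limma fits that left out 1 sample. Itgb3 and Stab1 were at 3 FPKM or less in every sample. Their differences are a few rounding steps, and rounding also narrows their spread. Itga5 kept it in 3 of 8, Adam10 in 3 of 8, Esrp2 in 4 of 8, Itga9 and Esrp1 in 5 of 8, Ezr and Ugp2 in 6 of 8 and Pgm3 in 7 of 8. With quantile normalization Itga5, Itga9, Mmp9, Adam10, Esrp1, Esrp2, Stab1, Layn and Gfpt2 were not called (limma adjusted p from 0.0610 to 0.546). With TPM, Aph1a, Adam10, Ank3, Esrp1, Esrp2, Tlr4, Ugp2 and Uap1 were not called (limma adjusted p from 0.0587 to 0.985), and Adam10 and Esrp1 lay above 0.

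**Figure D4:**
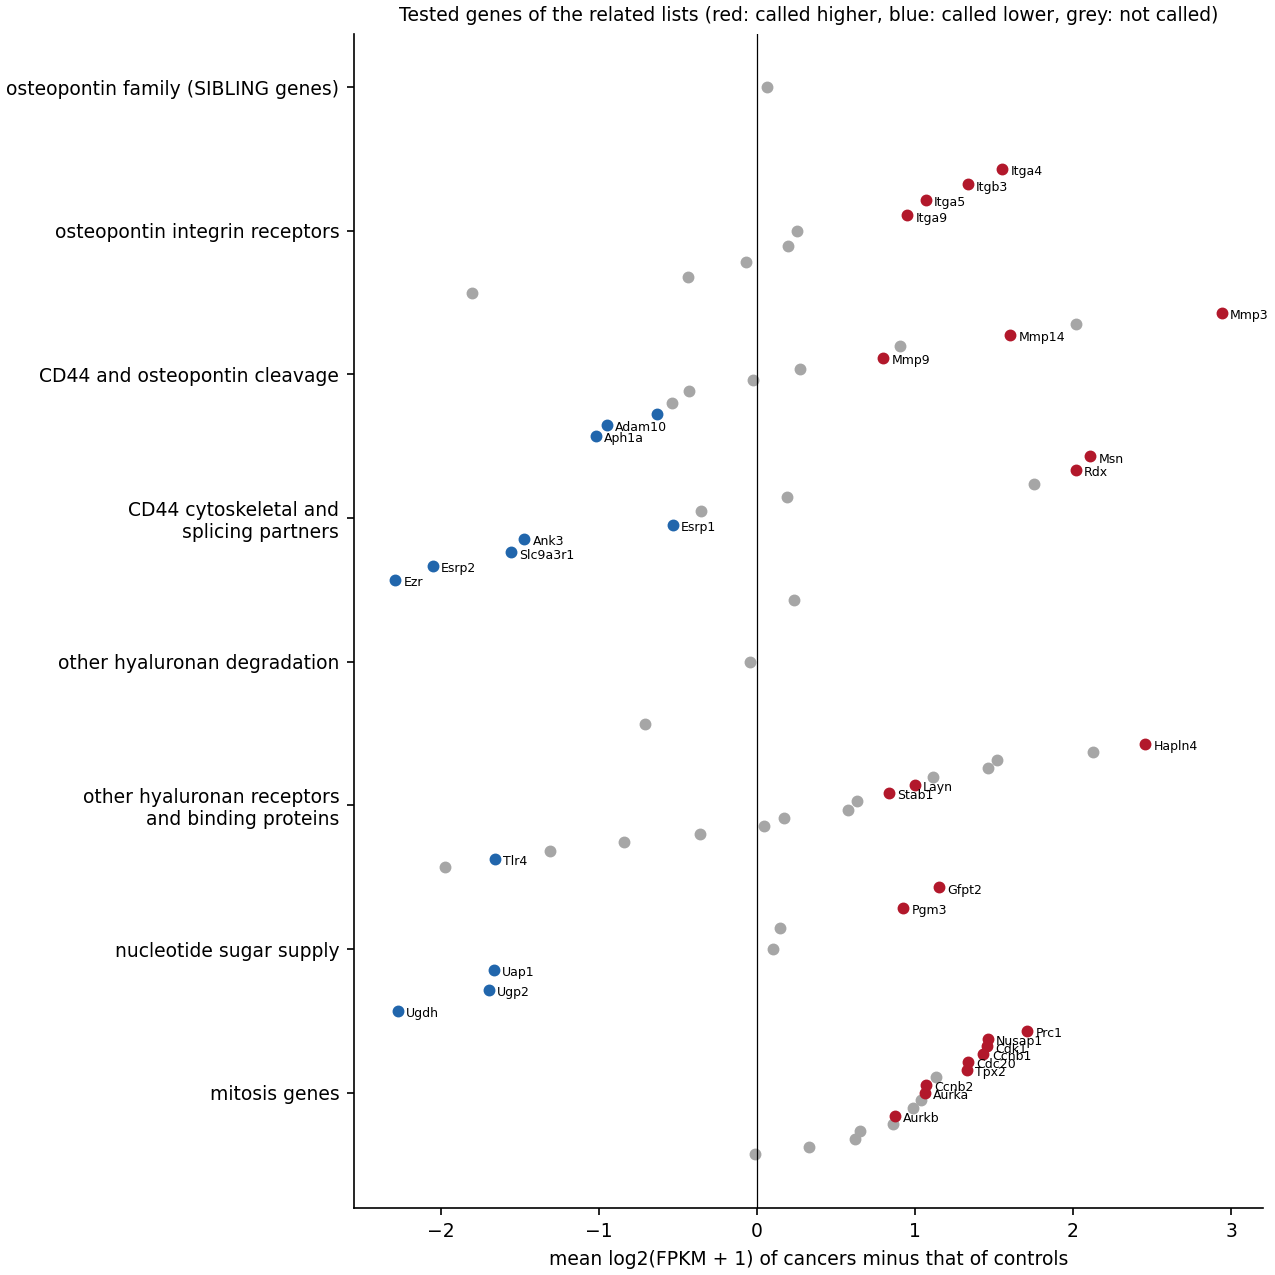
Difference of the group means of log2(FPKM + 1), cancers minus controls, for each tested gene of 8 lists related to osteopontin, CD44 and hyaluronan (red, called higher; blue, called lower; grey, not called; 1 point per gene, spread vertically within a list, with most called genes labelled). Of the 17 mitosis genes 9 are called higher, Msn and Rdx lie opposite Ezr, and of the genes labelled and marked lower, Adam10 and Esrp1 turned above 0 with TPM.

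**Figure D5:**
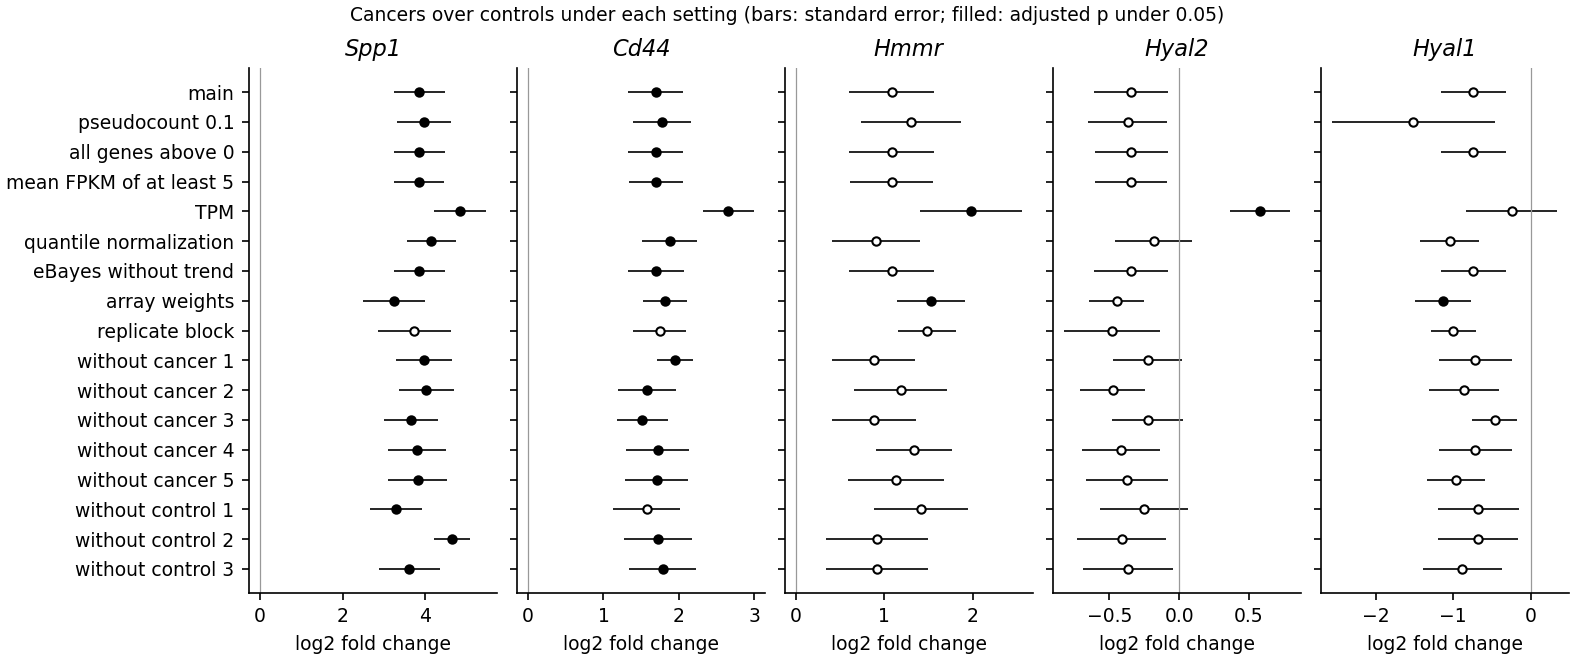
Log2 fold change of the 5 tested members, cancers over controls, under each alternative setting, with 1 row per setting. Bars are standard errors and filled points have an adjusted p under 0.05. Spp1 and Cd44 stay above 0 in every row, Hmmr is filled with TPM and with array weights, Hyal1 with array weights, and Hyal2 turns from -0.34 to 0.58 with TPM.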

How the data were processed

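Per the methods and the submitters' processing notes, poly(A)+ directional libraries were trimmed with cutadapt 1.8, aligned with TopHat2 2.0.13 and quantified over UCSC mm10 genes with cuffquant and cuffnorm 2.2.1. The normalization option of cuffnorm is not given in the sources used here. The authors deposited FPKM rounded to whole numbers (100% of values were whole), which were used as a score, never as counts of reads. Genes at 1 or more in at least 3 samples (14357 of 23361) were fitted with limma 3.58.1 in R 4.3.3 (log2(FPKM + 1), trended eBayes). Benjamini-Hochberg adjustment covered all of them, with a threshold of 0.05, and each tested member also had an exact permutation test (two-sided, scipy 1.17.1). Of 18 lists with 172 genes, all 172 were matched, 2 by Entrez number. The members and lists were chosen with earlier results of these data known. Genes named were the members, up to 3 called higher and 3 lower per related list, up to 3 most abundant per marker list and the 5 most like Spp1 and Cd44. Genes counted or singled out beyond this rule (Itga9, Ank3, Esrp1, Ibsp, Itgb1, Itgb5, Epcam, Itgam, Msr1, Pgc, Cd163, Marco, Ncr1, Cd74, Mif, liver genes and genes listed at 0) were named after their values were seen. Likeness over the 5 cancers is not reported, as 5 samples are too few. Alternatives were another pseudocount (0.1), other filters on low values, quantile normalization, TPM, array weights, untrended eBayes, the replicate block and leaving out each sample, and those for the lists were chosen after seeing the data. Values of 1 gene in the cleavage list enter its counts but are not reported here.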

Additional observations from a re-analysis of the deposited data

Results flagged for a closer look

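Among the 5 cancers, the highest or lowest sample was set against the nearest other sample for 24 levels, comprising the 5 tested members, the ratio of Spp1 to Cd44 and the 18 gene lists. The gap exceeded 0.71 of the whole range, Dixon's critical value for 5 samples, in 2 of them, where chance flags about 1 in 20, or 1.2 of 24. Cancer 1 stood apart in the mean log2 level of the leukocyte and lymphocyte markers, with a gap of 0.797 of the range. Cancer 5 stood apart in that of the fibroblast markers, with a gap of 0.757, and held a sum of 68 FPKM against 240 to 346 in the other cancers. No member was set apart by this rule, and the gap was 0.38 of the range for Spp1 (cancer 3), 0.531 for Cd44 (cancer 1) and 0.587 for their ratio (cancer 2). Without cancer 5 the log2 fold changes were 3.81 for Spp1 and 1.71 for Cd44.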

How the results depend on the processing

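Spp1 and Cd44 were higher in the cancers under all 16 alternatives run for each. Spp1 stayed past the threshold in 15 of them and Cd44 in 14. With a replicate block the log2 fold changes were 3.73 for Spp1 (adjusted p = 0.0872 in limma) and 1.75 for Cd44 (adjusted p = 0.0709), and 1534 genes were called in place of 4948. The sources do not say whether the replicate numbers pair the samples. Same-numbered samples deviated from their group means with correlations of -0.0211, -0.194 and -0.104 over 14357 genes. Of the 6 samples numbered 1 to 3, 0 correlated best with its own number in the other group. These values show no sign of pairing, but so few pairs cannot settle it, and the controls were paired by age. Leaving out 1 sample gave 3.29 to 4.65 for Spp1 (adjusted p 0.00561 to 0.0244), 1.52 to 1.95 for Cd44 (0.0041 to 0.0542, lost without control 1 at 1.58) and 2490 to 5252 genes called. The counts without controls 1, 2 and 3 were 2490, 2643 and 2815. TPM called 7704 genes, 7176 higher and 528 lower, or 93.1% higher against 47.0%, and array weights called 8148. Hyal2 reversed to 0.58 with TPM. With a mean of at least 5 FPKM, Hyal1 was not in the fit. The rounding limits Hyal1 and the synthases, which lie within 3 steps of 0, and read depth is unknown. What caused these shifts was not tested.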
